A study of Mus musculus with 5 samples.

Results

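Cyp3a11, Cyp3a13 and Cyp3a25, 3 mouse genes of the Cyp3a family of drug-metabolising cytochromes P450, were followed in single hepatocytes of mice on a high fat diet (HFD) and of mice on a regular diet (labelled LFD). They were taken by symbol from the 18018 genes of the unsmoothed table. The family was chosen by the diet difference of its level, which was known beforehand, so the levels and shares of cells by diet are given here as a description with no p. The animals were male C57BL/6J littermates, 8 weeks old at the start, and each diet was given for 12 weeks. Hepatocytes of 3 HFD mice and 2 LFD mice were profiled by Drop-seq, which tags the 3′ end of each captured transcript with a molecular identifier (UMI), 1 experiment a mouse. What either diet contained was not stated.

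Cyp3a enzymes are haem proteins of the endoplasmic reticulum that oxidise steroids, bile acids and a large share of clinical drugs, with electrons passed on by the reductase Por. In mouse liver their transcription is raised by the nuclear receptors PXR (Nr1i2) and CAR (Nr1i3), each bound to DNA together with RXR, and needs hepatocyte factors such as Hnf4a. In liver, genes of drug oxidation are mostly stronger near the central vein (pericentral) than near the portal vein (periportal). Cyp3a11 is the main inducible hepatic member in mouse and the usual mouse stand-in for human CYP3A4, Cyp3a25 is another hepatic member, and Cyp3a13 lies apart from the main cluster and is also known from the intestine.

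On GRCm38 with the GENCODE M21 annotation, the 3 genes are protein-coding, have 13 exons each and lie on the minus strand of chromosome 5. Cyp3a11 spans 145854426 to 145879964 and Cyp3a25 spans 145977194 to 146009618, within the main cluster. Cyp3a13 spans 137892932 to 137921619. The transcripts of Cyp3a11 and Cyp3a25 were 65.2% identical, those of Cyp3a11 and Cyp3a13 57.9% and those of Cyp3a25 and Cyp3a13 53.8%. No run of 50 bases in the last 400 bases of a transcript, where Drop-seq reads fall, was shared between any of the 3. The same held between Cyp3a11 and each of Cyp3a16, Cyp3a41a, Cyp3a41b and Cyp3a44, its closest relatives by sequence.

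The promoters of the 3 genes are shown because the members differed in their response across mice and because the receptors named above read short repeated letters. All 3 genes matched an entry of the RefSeq promoter table (GRCm38.p6), each sequence running from 250 bases before to 50 bases after the start, 5′ to 3′ on the gene's minus strand. The first listed start was taken for Cyp3a25, which has 2. Capitals mark AGGTCA and AGTTCA, letters of the hexamer that nuclear receptors bind, and TATAAA, found on either strand. The Cyp3a11 promoter lies at chr5:145879805-145880104, that of Cyp3a25 at chr5:146009569-146009868 and that of Cyp3a13 at chr5:137921570-137921869.
Cyp3a11: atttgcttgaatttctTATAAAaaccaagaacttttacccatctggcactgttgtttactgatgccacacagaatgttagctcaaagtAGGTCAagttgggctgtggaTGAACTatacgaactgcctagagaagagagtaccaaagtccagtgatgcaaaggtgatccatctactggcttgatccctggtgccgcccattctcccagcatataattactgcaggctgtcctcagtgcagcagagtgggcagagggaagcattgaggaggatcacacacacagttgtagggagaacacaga
Cyp3a25: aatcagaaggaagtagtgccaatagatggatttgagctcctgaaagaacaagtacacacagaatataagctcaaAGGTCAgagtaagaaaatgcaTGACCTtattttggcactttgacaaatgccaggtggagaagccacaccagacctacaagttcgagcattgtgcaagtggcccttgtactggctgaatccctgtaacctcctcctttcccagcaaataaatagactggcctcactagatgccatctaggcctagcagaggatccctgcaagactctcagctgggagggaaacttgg
Cyp3a13: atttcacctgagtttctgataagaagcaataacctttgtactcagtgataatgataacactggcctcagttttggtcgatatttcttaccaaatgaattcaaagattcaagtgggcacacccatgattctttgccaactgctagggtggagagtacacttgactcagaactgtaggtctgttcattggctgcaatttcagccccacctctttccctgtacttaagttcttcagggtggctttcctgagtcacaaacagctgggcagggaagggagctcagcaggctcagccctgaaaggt

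The Cyp3a11 promoter held AGGTCA once, beginning at base 89, AGTTCA once, on the opposite strand at base 109, and TATAAA once, at base 17, far upstream of the place of a TATA box. The Cyp3a25 promoter held 2 copies of AGGTCA, 1 on each strand, and the Cyp3a13 promoter held none of these motifs. Over all 32851 promoters of the table, 16.3% held AGGTCA, 14% AGTTCA and 13.6% TATAAA. A direct repeat of these AGGTCA or AGTTCA hexamers spaced by 3 bases was in 0.0122% of all promoters, one spaced by 4 bases in 0.0274% and an everted repeat spaced by 6 bases in 0.00913%, and none of the 3 promoters held such a repeat. GTTAAT, letters of an Hnf1 site, was in 7.10% of all promoters and in none of the 3. Only exact copies of the hexamers were searched, and such repeats are rare over all promoters, so their absence here says little. Repeats with an inexact hexamer were not searched. The matches describe letters in this window only.

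The unsmoothed table held 454 cells, 5, 208 and 25 in HFD mice 1 to 3 and 132 and 84 in LFD mice 1 and 2. Summed UMIs were 27903, 656803 and 58470 in HFD mice 1 to 3, against 446868 and 309050 in LFD mice 1 and 2. The values of HFD mouse 1 in particular thus rest on few UMIs. At least 23 of 24 hepatocyte markers in the table were found in over 50% of the cells of every mouse. HFD mouse 1 stood apart by its markers of other cells: its 8 sinusoidal endothelial markers summed to 1111 CPM (UMIs per 1000000 UMIs of the mouse), and to between 34.2 and 68.5 CPM in each of the other 4. Of its 5 cells, 3 held at least 3 UMIs of markers of another cell type. Such cells were 3 of 208 and 1 of 25 in HFD mice 2 and 3, against 3 of 132 and 1 of 84 in LFD mice 1 and 2. Red blood cell markers reached 501.7 and 290.7 CPM in HFD mice 1 and 3, and at most 13.7 CPM elsewhere. The part of these cells in the results below was not tested. No cell barcode was shared between mice. The label of HFD mouse 3 gives its raw reads a name of another form than those of the other mice.

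Cyp3a11 was found at 143, 108 and 462 CPM in HFD mice 1 to 3, against 3227 and 3145 CPM in LFD mice 1 and 2. These are 4, 71 and 27 UMIs in the HFD mice, against 1442 and 972 UMIs in the LFD mice, with exact Poisson 95% intervals of 39.1 to 367, 84.4 to 136 and 304 to 672 CPM in HFD mice 1 to 3, against 3062 to 3398 and 2950 to 3349 CPM in LFD mice 1 and 2. The HFD mice were all low and the LFD mice all high, with no overlap. The log2 fold change, HFD over LFD, was -4.26 (SE 0.42) in limma voom on UMIs summed per mouse. Of 3614 genes tested, 14.3% had every HFD mouse below every LFD mouse and 8.88% the reverse, and among the 3 members Cyp3a11 alone was in the first group. The intervals cover counting error only. The fold change was -4.45 without HFD mouse 1, -3.34 without HFD mouse 2 and -4.62 without HFD mouse 3. A single cell of HFD mouse 3 held 23 of its 27 UMIs of Cyp3a11. Without the top cell of each mouse, Cyp3a11 was at 97.9, 90.6 and 73.2 CPM in HFD mice 1 to 3, against 3167 and 3124 CPM in LFD mice 1 and 2, so the HFD mice lay closer together.

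**Figure D1:**
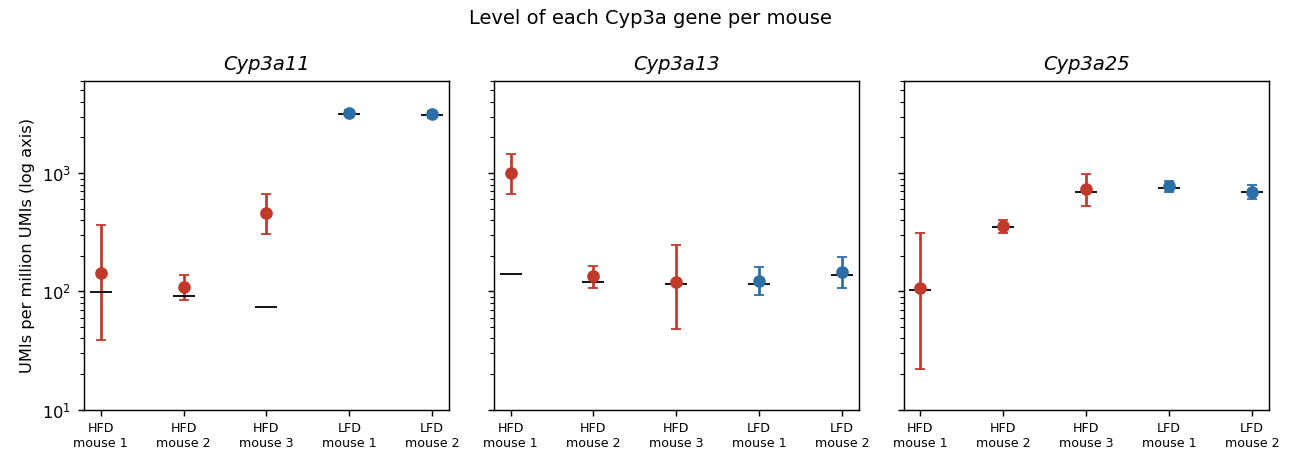
Level of each Cyp3a member per mouse in CPM (UMIs per 1000000 UMIs of the mouse, log axis), HFD mice to the left of LFD mice. Points are levels with exact Poisson 95% intervals and black dashes are levels without the top cell of the gene; Cyp3a11 lies at 108 to 462 CPM in HFD mice against 3145 to 3227 CPM in LFD mice, while the mice of the 2 diets overlap for Cyp3a13 and Cyp3a25.

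Cyp3a25 was found at 108, 355 and 735 CPM in HFD mice 1 to 3, against 772 and 692 CPM in LFD mice 1 and 2. HFD mouse 3 lay between the LFD mice, so the groups overlapped, and HFD mouse 1, whose value rests on 3 UMIs, was the lowest. The log2 fold change was -1.13 (SE 0.47) over 5 mice and -0.80 without HFD mouse 1.

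Cyp3a13 was found at 1003, 134 and 120 CPM in HFD mice 1 to 3, against 123 and 146 CPM in LFD mice 1 and 2. HFD mouse 1 alone was high and the other 4 lay at 120 to 146 CPM, with the counting intervals of HFD mouse 2 (107 to 165 CPM) and HFD mouse 3 (48.1 to 247 CPM) against those of LFD mouse 1 (92.7 to 160 CPM) and LFD mouse 2 (106 to 195 CPM) overlapping throughout. A single cell held 25 of the 28 UMIs in HFD mouse 1, and without it that mouse was at 141 CPM. That cell had 6598 UMIs over 636 genes and at least 3 UMIs of markers of other cell types. The log2 fold change was 0.51 (SE 0.67) over 5 mice and -0.00 without HFD mouse 1.

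The makeup of the family differed between diets as well. Drop-seq tags a transcript at its end, so shares of UMIs are shares of tagged molecules and are not divided by transcript length. Cyp3a11 gave 11.4%, 17.9% and 34.6% of all Cyp3a UMIs in HFD mice 1 to 3, against 77.2% and 78.1% in LFD mice 1 and 2. Cyp3a25 gave 8.57%, 58.7% and 55.1% in HFD mice 1 to 3, against 18.5% and 17.2% in LFD mice 1 and 2. Cyp3a11 was thus the main member in the LFD mice and Cyp3a25 in HFD mice 2 and 3, while Cyp3a13 led in HFD mouse 1 through its 1 cell. All Cyp3a UMIs together were 0.125%, 0.0604% and 0.133% of the UMIs of HFD mice 1 to 3, against 0.418% and 0.403% in LFD mice 1 and 2.

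**Figure D2:**
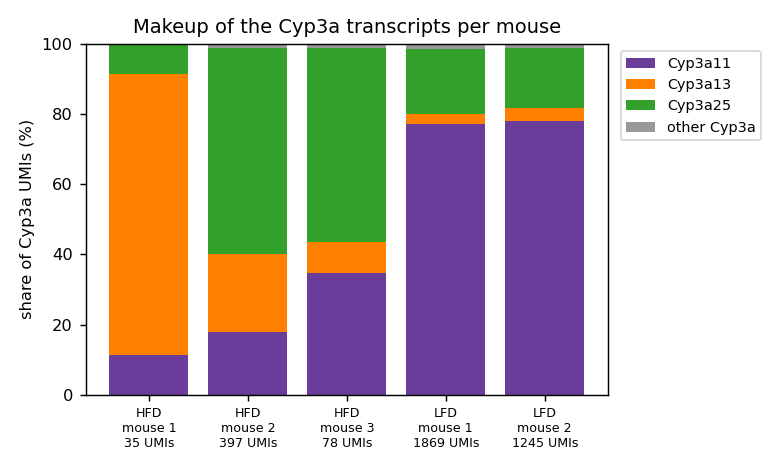
Share of all Cyp3a UMIs given by each gene, in percent, per mouse, HFD mice to the left of LFD mice. Cyp3a11 gives 11.4% to 34.6% in HFD mice against 77.2% to 78.1% in LFD mice.

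The table held 7 Cyp3a genes, 2 of them, Cyp3a44 and Cyp3a57, with no UMI in any cell. Cyp3a16 had 2 UMIs, in LFD mouse 1. Cyp3a59, whose transcript is 96.6% identical to that of Cyp3a25, was at 0, 7.61 and 17.1 CPM in HFD mice 1 to 3, against 55.9 and 45.3 CPM in LFD mice 1 and 2, with a log2 fold change of -2.10 (SE 0.61) that did not pass (limma voom adjusted p = 0.436). Without HFD mouse 1 it was -2.47 (limma voom adjusted p = 0.0111). Of the 50-base runs in the last 400 bases of Cyp3a25, 0.855% were also in Cyp3a59, and 24.6% over the whole transcript, so a read may belong to either gene and the small Cyp3a59 value is uncertain. Cyp3a41a and Cyp3a41b were not analysed here.

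Cells with at least 1 UMI of Cyp3a11 were 3 of 5, 34 of 208 (16.3%) and 5 of 25 in HFD mice 1 to 3, against 128 of 132 (97.0%) and 82 of 84 (97.6%) in LFD mice 1 and 2. Exact binomial 95% intervals were 14.7% to 94.7% in HFD mouse 1, which reaches into those of the LFD mice, 11.6% to 22.1% in HFD mouse 2 and 6.83% to 40.7% in HFD mouse 3, against 92.4% to 99.2% and 91.7% to 99.7% in LFD mice 1 and 2. The difference lay in the UMIs per positive cell as well: positive cells held a median of 1 UMI in each HFD mouse, against 9 in each LFD mouse. Every cell was also thinned to 1728 UMIs, and cells with fewer were left out, since median UMIs per cell were 6598, 2181.5 and 1863 in HFD mice 1 to 3, against 2734 and 3075.5 in LFD mice 1 and 2. At this depth, which left 5, 134 and 14 cells in HFD mice 1 to 3, against 114 and 74 cells in LFD mice 1 and 2, the shares with Cyp3a11 were 33.2%, 12.0% and 13.8% in HFD mice, against 96.5% and 93.1% in LFD mice. No cell type free of Cyp3a11 was at hand to measure the share that free RNA alone gives.

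Cyp3a25 was found in 60.0%, 57.7% and 72.0% of cells in HFD mice 1 to 3, against 81.8% and 83.3% in LFD mice 1 and 2. After thinning, the shares were 21.2%, 47.4% and 66.5% in HFD mice 1 to 3, against 72.1% and 66.2% in LFD mice 1 and 2, and HFD mouse 3 again lay between the LFD mice. Cyp3a13 was found in 40.0%, 26.4% and 28.0% of cells in HFD mice 1 to 3, against 32.6% and 38.1% in LFD mice 1 and 2. After thinning, these were 30.1%, 18.5% and 23.7% in HFD mice, against 18.2% and 20.5% in LFD mice, with overlap.

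**Figure D3:**
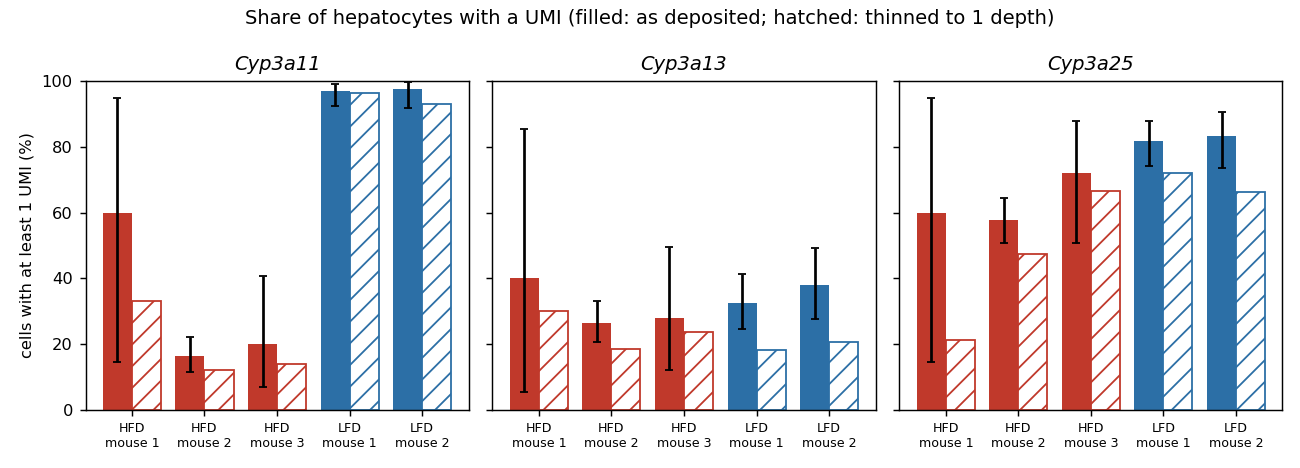
Share of cells with at least 1 UMI of each member, in percent, per mouse, HFD mice to the left of LFD mice. Filled bars are as deposited with exact binomial 95% intervals and hatched bars are thinned to 1728 UMIs a cell; Cyp3a11 is in 16.3% of the cells of HFD mouse 2 against 97.0% and 97.6% in LFD mice 1 and 2.

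Cells were placed along the lobule by the natural log of their pericentral over periportal marker UMIs, with 25 genes on each side and none of the Cyp3a family. The cells of each of the 4 mice with at least 20 cells were divided at the median into a pericentral and a periportal side. In HFD mouse 2, Cyp3a11 was at 174 CPM on the pericentral side (64 UMIs, 27 of 104 cells), against 24.2 CPM on the periportal side (7 UMIs, 7 of 104 cells). In HFD mouse 3 it was at 854 CPM on the pericentral side (27 UMIs, 23 of them in 1 cell, 5 of 12 cells) against 0 of 13 cells on the periportal side, where a count of 0 allows up to 112 CPM. With the score built without P450 genes, HFD mouse 3 had Cyp3a11 in 3 of 12 pericentral cells (25 UMIs, 23 in 1 cell) against 2 of 13 periportal cells (2 UMIs). In the LFD mice it was at 3872 CPM on the pericentral side against 2815 CPM on the periportal side in mouse 1, and at 3391 CPM against 2979 CPM in mouse 2. The pericentral side was thus higher in each of the 4 mice, through 1 cell for the most part in HFD mouse 3, and by 7.21-fold in HFD mouse 2, 1.38-fold in LFD mouse 1 and 1.14-fold in LFD mouse 2.

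Across diets, the side difference was tested in limma voom over 2688 genes with the mouse as a block, with adjusted p under 0.05 as the threshold, which 6.4% of genes passed. None of the 3 members passed, against 172 of all 2688 genes. Cyp3a11 was among the 396 genes with an unadjusted p under 0.05, and Cyp3a13 and Cyp3a25 were not. The log2 difference, pericentral over periportal, was 0.45 (SE 0.17, limma voom adjusted p = 0.111) for Cyp3a11, -0.17 (SE 0.23, adjusted p = 0.807) for Cyp3a13 and -0.02 (SE 0.15, adjusted p = 0.972) for Cyp3a25. The difference of the side difference between diets, HFD minus LFD, was 3.35 (SE 0.67) for Cyp3a11, the second smallest p of 2688 genes, but it did not pass (limma voom adjusted p = 0.135). Only 1 gene, Mup11, passed, or 0.0372%, and 113 had an unadjusted p under 0.05. The value of Cyp3a11 passed when the outer of 3 groups were compared in place of the sides (3.66, limma voom adjusted p = 0.0427). It also passed when the score was built without P450 genes (2.63, limma voom adjusted p = 0.0211). Both of these fits kept the cell of HFD mouse 3 that held 23 Cyp3a11 UMIs, and the share of all genes that they called is not given here. Leaving out HFD mouse 2 gave 5.27 and leaving out HFD mouse 3 gave 2.46, with limma voom adjusted p of 1.00 and 0.766, each with 1 HFD mouse assumed to vary like the others. The first of these rests on HFD mouse 3 alone, with 0 periportal UMIs, so its size depends on the fit's offset for zero counts and is no estimate of a fold. The main value of 3.35 and the 3.66 of the outer groups also include a periportal count of 0 in HFD mouse 3, so their size depends in part on that offset. With the score free of P450 genes, which put 2 UMIs there, the value was the 2.63 given above. Without the 1 cell of HFD mouse 3 that held 23 Cyp3a11 UMIs, the value was 2.52 (limma voom adjusted p = 0.248), an alternative chosen after seeing the data. Cyp3a13 and Cyp3a25 had interaction values of 0.40 (SE 0.45) and 0.41 (SE 0.30) (limma voom adjusted p = 0.965 each). Median UMIs per cell on the pericentral and periportal sides were 2295 and 1973 in HFD mouse 2 and 2138 and 1714 in HFD mouse 3, against 2068 and 3541 in LFD mouse 1 and 2756 and 3408 in LFD mouse 2. Depth thus ran the opposite way in the diets. With every cell thinned to 1728 UMIs, Cyp3a11 was in 18.4% of pericentral against 4.07% of periportal cells in HFD mouse 2 and in 24.1% against 0 in HFD mouse 3. In LFD mouse 1 these were 97.8% against 95.4% and in LFD mouse 2 97.9% against 89.0%.

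**Figure D4:**
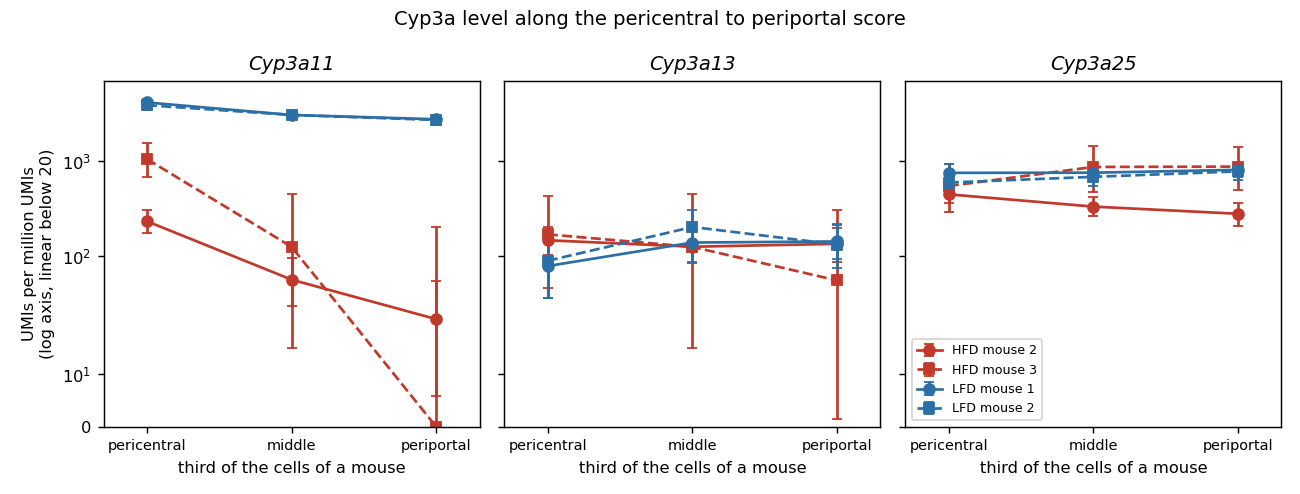
Level of each member in CPM (axis linear below 20 and logarithmic above) in cells ranked along the lobule and divided into pericentral, middle and periportal groups, for the 4 mice with at least 20 cells, HFD mice first. Cyp3a11 lies at 230, 55.5 and 21.3 CPM in HFD mouse 2, against 4155, 3063 and 2760 CPM in LFD mouse 1.

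**Figure D5:**
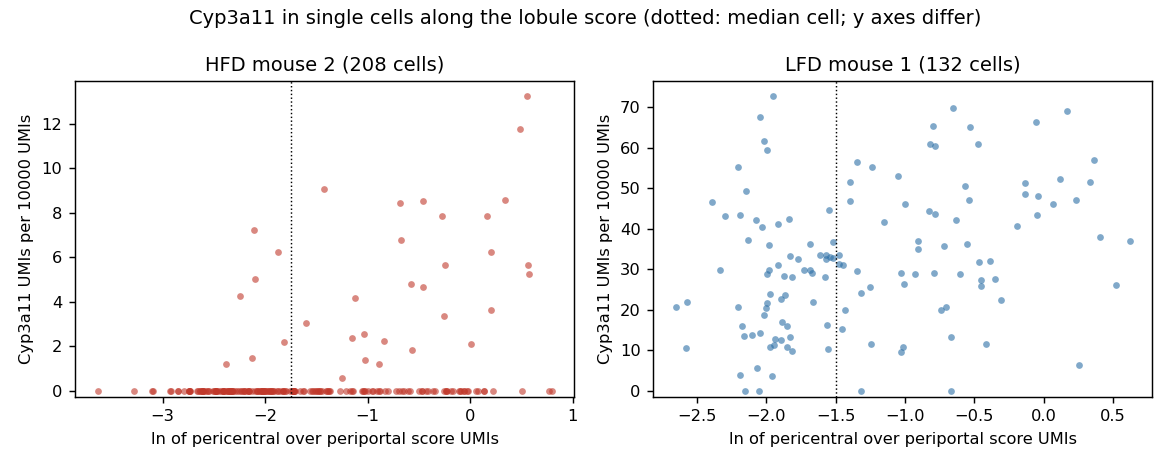
Cyp3a11 in each cell, in UMIs per 10000, against the pericentral over periportal score, for HFD mouse 2 on the left and LFD mouse 1 on the right, on y axes of different range; the dotted line marks the median cell. All 13 cells with 2 or more UMIs in HFD mouse 2 lie on the pericentral side.

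Divided in 3, Cyp3a11 in the pericentral, middle and periportal cells was at 230, 55.5 and 21.3 CPM in HFD mouse 2 and at 1046, 123 and 0 CPM in HFD mouse 3. In LFD mouse 1 it was at 4155, 3063 and 2760 CPM and in LFD mouse 2 at 3887, 3065 and 2711 CPM. The levels thus ran down from pericentral to periportal cells in HFD mouse 2 and both LFD mice. In HFD mouse 3 they rest on 25, 2 and 0 UMIs, 23 of the 25 in 1 cell, and the middle value is under the 185 CPM that a count of 3 gives there, so no order is read from that mouse. Cyp3a25 had no order common to the mice. It ran down from pericentral to periportal cells in HFD mouse 2, at 443, 329 and 276 CPM. In HFD mouse 3 it ran up, at 544, 864 and 872 CPM. The LFD mice also ran up, with 748, 751 and 806 CPM in mouse 1 and 591, 679 and 776 CPM in mouse 2. Only in HFD mouse 2 were its pericentral cells the highest. There the counting intervals of the pericentral and periportal groups barely met, at 362 to 537 CPM (104 UMIs) and 206 to 362 CPM (52 UMIs). In HFD mouse 3 and both LFD mice the intervals of the outer groups overlapped. Cyp3a13 was at 145, 124 and 133 CPM in HFD mouse 2 and, in HFD mouse 3, at 167, 123 and 54.5 CPM, against 77.4, 137 and 141 CPM in LFD mouse 1 and 88.1, 200.3 and 131 CPM in LFD mouse 2.

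Within HFD mouse 2, the 34 cells with Cyp3a11 held a median of 4096 UMIs, against 2056.5 in the 174 cells without it. Of the 34, 27 were on the pericentral side, against 77 of the 174. All 13 cells with at least 2 UMIs were pericentral and held 50 of the 71 UMIs. Cyp3a25 was at 421 CPM in the cells with Cyp3a11 and 332 CPM in those without.

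From cell to cell, correlations between the members were near 0. Pearson's r of the deposited log values of Cyp3a11 and Cyp3a25 was 0.07 over 208 cells of HFD mouse 2, against -0.06 over 132 cells of LFD mouse 1 and 0.01 over 84 cells of LFD mouse 2, and the pairs with Cyp3a13 lay between -0.07 and 0.06. In sparse counts such values carry little. Among 972 genes found in at least 25% of cells of each of these 3 mice, those most like Cyp3a11 by mean r were Slco1b2 (0.30), an organic anion uptake transporter, Cyp2e1 (0.29), Cyp2c50 (0.27), Rgn (0.27) and Mgst1 (0.27). All but Slco1b2 are among the pericentral marker genes used for the score, and cells of a mouse share its library and depth.

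No regulator of the Cyp3a genes passed the diet test over 5 mice. Of 13 tested regulators 0 passed adjusted p under 0.05 in limma voom, against 0.221% of all 3614 genes, with 1 at an unadjusted p under 0.05, against 184 of all 3614 genes, and 0 called by limma-trend. The median log2 fold change was 0.07, against -0.08 over all genes tested. Nr1i2, which encodes PXR, was at 71.7, 47.2 and 68.4 CPM in HFD mice 1 to 3, against 60.4 and 68.0 CPM in LFD mice 1 and 2 (log2 fold change -0.17, SE 0.52, limma voom adjusted p = 0.993). Its partner Rxra was at 143, 122 and 85.5 CPM in HFD mice, against 107 and 80.9 CPM in LFD mice, with overlap. Hnf4a was at 35.8, 85.3 and 120 CPM in HFD mice, against 96.2 and 123 CPM in LFD mice. Cebpa, another liver factor, was at 143, 199 and 137 CPM in HFD mice, against 172 and 159 CPM in LFD mice, and for each of these 4 genes the groups overlapped.

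Nr1i3, which encodes CAR, was at 35.8, 146 and 222 CPM in HFD mice 1 to 3, against 69.4 and 51.8 CPM in LFD mice 1 and 2. HFD mice 2 and 3 were above both LFD mice and HFD mouse 1, with 1 UMI, was below (log2 fold change 1.12, SE 0.57, limma voom adjusted p = 0.988). Without HFD mouse 1 its value was 1.35 (limma voom adjusted p = 0.0134), in a fit that called 3.38% of 3670 genes. Onecut1, a hepatocyte transcription factor named here after its values were seen, also passed in that fit, with a log2 fold change of -3.23 (limma voom adjusted p = 0.00875), against -2.86 (adjusted p = 0.146) over 5 mice. It was at 35.8, 12.2 and 0 CPM in HFD mice 1 to 3, against 96.2 and 129 CPM in LFD mice 1 and 2. The 0 of HFD mouse 3 allows up to 51.3 CPM, so the size of the fold depends in part on the fit's offset for zero counts.

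Of the 8 tested electron partners and haem synthesis genes, 0 passed in limma voom, against 0.221% of all 3614 genes. An unadjusted p under 0.05 was found for 1 of them, against 184 of all 3614 genes, and limma-trend called 0. Their median log2 fold change was -0.62, against -0.08 over all genes tested. Without HFD mouse 1 it was -0.25, against -0.002 over all genes tested. Por was at 0, 77.6 and 137 CPM in HFD mice 1 to 3, against 148 and 175 CPM in LFD mice 1 and 2 (log2 fold change -1.19, SE 0.61, limma voom adjusted p = 0.988), the 0 of HFD mouse 1 allowing up to 108 CPM. Cyb5r3, which reduces cytochrome b5, was at 609, 431 and 496 CPM in HFD mice, against 745 and 802 CPM in LFD mice. Every HFD mouse was below every LFD mouse, as for 14.3% of all genes tested. The log2 fold change of Cyb5r3, -0.73 (SE 0.33), had a limma voom adjusted p of 0.948. Pgrmc1, a haem-binding partner of P450 enzymes, was at 179, 399 and 462 CPM in HFD mice, against 613 and 544 CPM in LFD mice. Without HFD mouse 1, Cyb5r3 and Alas1, the first enzyme of haem synthesis, passed as lower in HFD mice (limma voom adjusted p = 0.0173 and 0.0236). That fit called 3.38% of all 3670 genes. Alas1 was at 143, 57.9 and 325 CPM in HFD mice 1 to 3, against 177 and 421 CPM in LFD mice 1 and 2, so HFD mouse 3 lay between the LFD mice and the groups overlapped.

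Of 16 tested genes known as targets of PXR or CAR, 0 passed in limma voom, against 0.221% of all 3614 genes, and limma-trend called 0. An unadjusted p under 0.05 was found for 5 of them, all lower, against 184 of all 3614 genes in either direction. The fold change was below 0 for 14 of the 16, with a median of -0.62, against 2036 of all 3614 genes below 0. It was below 0 for 10 of the 16 without HFD mouse 1, against 1846 of all 3670 genes. Gstm1, a glutathione transferase, was at 430, 862 and 975 CPM in HFD mice 1 to 3, against 1414 and 1239 CPM in LFD mice 1 and 2 (log2 fold change -0.81, limma voom adjusted p = 0.916). Aldh1a1, a retinal dehydrogenase, was at 323, 1089 and 889 CPM in HFD mice, against 548 and 744 CPM in LFD mice, with overlap (log2 fold change 0.36, SE 0.43). Without HFD mouse 1, in a fit that called 3.38% of all 3670 genes, 4 targets passed, all lower in HFD mice: Ces2a, Gsta2, Cyp2c29 and Gstm3. Gsta2 was at 753, 16.7 and 51.3 CPM in HFD mice 1 to 3, against 105 and 80.9 CPM in LFD mice 1 and 2, so the mouse left out was the highest of all 5. For Ces2a, a carboxylesterase, the values were 0, 80.7 and 120 CPM in HFD mice, against 649 and 408 CPM in LFD mice (log2 fold change without HFD mouse 1 -2.62, limma voom adjusted p = 3.6e-05).

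Of 20 tested P450 genes of other drug-oxidising families, 1 passed in limma voom, Cyp2c70, and it was lower in HFD mice, against 0.166% of all genes called as lower. It was not called by limma-trend, with no filter, with the replicate number as a block, or when HFD mouse 2, HFD mouse 3, LFD mouse 1 or LFD mouse 2 was left out, each of which left 0 calls in the list. Cyp2c70, an enzyme of mouse bile acid hydroxylation, was at 215, 145 and 154 CPM in HFD mice 1 to 3, against 745 and 764 CPM in LFD mice 1 and 2 (log2 fold change -2.25, SE 0.37, limma voom adjusted p = 0.0275). Fold changes were below 0 for 16 of the 20, with a median of -0.59, against 2036 of all 3614 genes. Without HFD mouse 1 they were below 0 for 13 of the 20, against 1846 of all 3670 genes. That fit called 3.38% of all genes, and 5 of the list passed in it as lower, namely Cyp2c70, Cyp2f2, Cyp2c29, Cyp2d9 and Cyp1a2.

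Of 38 tested genes of conjugation and ester hydrolysis, 0 passed in limma voom, against 0.221% of all 3614 genes, and limma-trend called 0. An unadjusted p under 0.05 was found for 9 of them, all lower, against 184 of all 3614 genes in either direction. The median was -0.52, against -0.08 over all genes tested, and -0.20 without HFD mouse 1, against -0.002 over all genes tested. Gstp1, a glutathione transferase, was at 1434, 612 and 599 CPM in HFD mice 1 to 3, against 3343 and 1660 CPM in LFD mice 1 and 2, and Ces1c, a serum carboxylesterase, was at 1792, 2084 and 2343 CPM in HFD mice, against 1752 and 1566 CPM in LFD mice. Neither passed (limma voom adjusted p = 0.146 and 0.988). Without HFD mouse 1, in a fit that called 3.38% of all 3670 genes, 9 passed, 8 of them lower, the 1 higher being Ces2e. The lists share members, so their counts are not independent.

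The second deposited table, named for a smoothing method that averages similar cells, gave another picture of Cyp3a11. Its mean was 1.59, 1.61 and 1.64 in HFD mice 1 to 3, against 1.91 and 1.91 in LFD mice 1 and 2, with every cell above 0, where the unsmoothed means on the natural log scale were 0.87, 0.27 and 0.50 in HFD mice, against 3.29 and 3.26 in LFD mice. For Cyp3a25 the smoothed means were 1.48, 1.49 and 1.49 in HFD mice, against 1.56 and 1.56 in LFD mice. For Cyp3a13 they were 0.518, 0.515 and 0.517 in HFD mice, against 0.519 and 0.519 in LFD mice, a range smaller than that of the unsmoothed table.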

How the data were processed

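Hepatocytes of 3 HFD and 2 LFD mice were profiled by Drop-seq, and cells were given to mice by the prefix of their column names, with 0 columns left unmapped. STAR 2.6.0a and mm10 are named in the submitters' processing notes. How the authors filtered cells, counted shared reads and treated strand and doublets was not stated; no doublet caller was run. The table deposited by the authors holds the natural log of 1 plus UMIs per 10000 UMIs of a cell, as its values show: 100% of values above 0 were whole multiples of 1 UMI within a tolerance of 0.001, and UMIs were recovered. The second deposited table is smoothed, on the natural log scale, and was read for the members only.

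The members, gene lists and tests were chosen with earlier results of these data known. Because the deposited unit is a log and not a count, no count model was run, and UMIs summed per mouse were tested in limma voom (limma 3.58.1, R 4.3.3) with trimmed-mean factors and Benjamini-Hochberg adjustment over all genes tested, threshold 0.05. The filter on low values was 15 UMIs in all and, in at least 2 mice, the CPM equal to 10 UMIs in the median library. Replicates are separate mice. Named genes were, from each list, up to 3 called genes with the smallest p or, with none called, the 2 of highest mean CPM, with Nr1i2, Nr1i3, Rxra, Hnf4a and Por always named; genes that passed only without HFD mouse 1 were named after their values were seen. Recovery was tested on simulated sums with the same spread for all genes and no outlying single cells. It thus says nothing about values that rest on a single cell, and its outcome is not given here. Figures used Matplotlib 3.10.9. Alternatives were other filters, scalings, scores and cells, and leaving out each mouse.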

Additional observations from a re-analysis of the deposited data

How the results depend on the processing

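The direction of the Cyp3a11 diet difference held under all alternatives run. Leaving out 1 mouse gave log2 fold changes of -4.62 to -3.34 for Cyp3a11, the smallest without HFD mouse 2, -0.00 to 1.46 for Cyp3a13 and -1.66 to -0.80 for Cyp3a25. The top Cyp3a11 cell of HFD mouse 3 and the top Cyp3a13 cell of HFD mouse 1 were left out, chosen after seeing the data. Without these cells the log2 fold changes were -4.91, 0.01 and -1.04. Without cells holding other cell types' UMIs Cyp3a13 was at -0.03. With the replicate number as a block they were -4.66, 1.32 and -1.63. The numbers were not used as pairs. Mice of the same number deviated together little (r = 0.03 and 0.06 over 3614 genes). The deviations of 2 LFD mice mirror each other and HFD mouse 1 has few UMIs, so these values cannot decide whether mice were paired.

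The diet by side value of Cyp3a11 was 3.66 (limma voom adjusted p = 0.0427) with the outer of 3 groups. With a score free of P450 genes it was 2.63 (limma voom adjusted p = 0.0211). Both fits kept the top Cyp3a11 cell of HFD mouse 3, and the share of all genes they called is not given here. When 1 mouse was left out it was 2.46 to 5.27, the highest resting on HFD mouse 3 with 0 periportal UMIs. The 3.66 also includes a periportal count of 0 in that mouse. The value of Cyp3a25 ran from -0.30 to 0.63. The cause was not tested. Without thinning, the difference of the share of cells, HFD minus LFD, was -65.2 points for Cyp3a11, against -75.1 thinned, and -3.85 for Cyp3a13, against 4.70 thinned.

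Calls in the lists rest on few mice. Among PXR or CAR targets 1 was called with the mean of deposited logs, 1 with a minimum of 50 UMIs and 1 with the replicate block. Among other P450 genes 0 were called by limma-trend, 2 with a minimum of 50 UMIs, 0 with no filter and 0 with the replicate block. Among conjugation and hydrolysis genes 1 was called with the mean of deposited logs, 1 with a minimum of 50 UMIs and 1 with the replicate block. Limma-trend called 0 of all 3614 genes. For the other fits just named the share of all genes called is not given here, so these counts cannot be set against a background. Leaving out 1 mouse gave 0 to 1 calls for other Cyp3a genes, 0 to 2 for regulators, 0 to 2 for electron partners and haem, 0 to 4 for PXR or CAR targets, 0 to 5 for other P450 genes and 0 to 9 for conjugation and hydrolysis genes, the highest each time without HFD mouse 1. The fit without HFD mouse 1 called 3.38% of all 3670 genes. Cyp3a13 could not be fitted at a minimum of 50 UMIs. The depth of HFD mouse 1, where 0 UMIs allow up to 108 CPM, limits every value over 5 mice.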
